A study of Mus musculus with 4 samples.

Results

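Cytosolic ribosomal protein genes encode the proteins of the 2 subunits of the ribosome in the cytoplasm. The genes were taken by symbol, as those that begin with Rpl or Rps and a number, together with Rplp0, Rplp1, Rplp2 and Rpsa. S6 kinase genes (Rps6k), copies with -ps in the symbol and a fixed set of 10 symbols were left out (Rpl7, Rpl7l1, Rpl10l, Rpl22, Rpl22l1, Rpl39, Rpl39l, Rps4l, Rps27 and Rps27l). This rule took 79 of the 24428 gene symbols in the tables, 47 of the large subunit, 31 of the small subunit and Rps19bp1, which matches by name but is not a ribosomal subunit. The names of these genes drew on no measured value.

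The mouse embryonic stem cells had the 129SvEv background, were at passage 15-20 and grew in serum with LIF. All 4 libraries came from Smarca4flfl cells with CreER, in which the chromatin remodeling ATPase gene Smarca4 carries loxP sites and a Cre recombinase is switched on by tamoxifen. The 2 Tam libraries came from cells kept for 48 h with 4-hydroxytamoxifen at 0.8 uM, and the 2 EtOH libraries from cells given ethanol, the solvent, for the same time. Both groups were collected 72 h after the treatment began. The genotype label of the EtOH libraries is that of the Tam libraries, and the groups rest on titles and treatment labels. Tamoxifen-treated cells without loxP sites were not analysed here, and deletion, drug and active Cre cannot be told apart. Whether the replicates of a group were separate cultures is not stated in the labels, and the p-values here reflect the spread among 4 libraries, possibly technical in part.

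Reads in genes numbered 13458463 and 17191445 in the Tam libraries and 16130823 and 27086142 in the EtOH libraries. Reads assigned to no gene were 37.6% and 35.0% of all counted reads in the Tam libraries, against 51.7% and 40.8% in the EtOH libraries. Smarca4 had 968 and 1226 reads in the Tam libraries, against 5042 and 10649 in the EtOH libraries. This was a log2 fold change of -2.43 ± 0.17 (SE) with an adjusted p of 1.08e-05 (quasi-likelihood test of edgeR, Benjamini-Hochberg). Replicate libraries differed by more than sampling noise, and the EtOH pair did so more (chi-square per degree of freedom 10.5 for Tam and 37.0 for EtOH). A gene is termed called where this adjusted p was under 0.05, which held for 44.5% of all tested genes (21.5% higher and 22.9% lower in the Tam libraries). Of 10 embryonic stem cell markers 2 were higher and 1 lower (30% called), and their summed level was 6021 and 5625 CPM (counts scaled to a common total of reads in genes) in the Tam libraries and 5230 and 5149 CPM in the EtOH libraries. Fibroblast markers summed to 470 and 461 CPM in the Tam libraries, against 244 and 182 CPM in the EtOH libraries. Of these, 6 of 9 tested were called, all higher (66.7%), and Lum had 6 and 4 reads in the Tam libraries and 4 and 0 in the EtOH libraries. Primitive endoderm markers summed to 3250 and 3022 CPM in the Tam libraries, against 2716 and 2419 CPM in the EtOH libraries, with 4 of 10 higher (40%) and none lower. With each library's trend with transcript GC content removed (GC correction, below), 1 endoderm marker was higher and 0 lower. Of fibroblast markers 6 were then higher and 1 lower, and of stem cell markers 3 higher and 2 lower. That was 10%, 77.8% and 50% called, against 19.2% of all tested genes. The part of these markers in the results on ribosomal protein genes was not tested. In bulk samples, fewer cells of a type and less RNA per cell cannot be told apart.

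A ribosome has 1 copy of nearly every one of these proteins, and cells make them in matched amounts, since unassembled ribosomal proteins are degraded. The mRNAs are abundant and stable in dividing cells. They begin with a run of pyrimidines, the terminal oligopyrimidine (TOP) tract, through which mTORC1 and the RNA-binding protein LARP1 set their translation. Much of the balance in this family is kept after transcription, and protein was not measured here.

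The stretches around the transcription start are shown for those called genes that have a single annotated start among the 5 most positive and 5 most negative log2 fold changes of each subunit, with starts from the RefSeq promoter table of GRCm38.p6. Each stretch runs from 60 bases before to 20 bases from the start onward, on the strand of the gene. Capitals mark the pyrimidine run CTTTC, the run CTTCC, the run CTTTT or the run CTCTT within 20 bases of the start on either side, searched on the strand of the gene only, and CCGGAAG, a pattern that ETS-family factors bind, searched on both strands. The pyrimidine runs overlap each other, and the reverse of CCGGAAG holds CTTCC. The first 3 genes were higher and the other 6 lower in the Tam libraries. They lie at chr7:45718011-45718090 (plus strand, Rpl18), chr10:80292371-80292450 (plus, Rps15), chr7:28350629-28350708 (plus, Rps16), chr11:97782420-97782499 (minus, Rpl23), chr1:39367791-39367870 (plus, Rpl31), chr5:65391412-65391491 (minus, Rpl9), chr10:23787190-23787269 (minus, Rps12), chr7:118116128-118116207 (minus, Rps15a) and chr4:86857348-86857427 (minus, Rps6).
Rpl18: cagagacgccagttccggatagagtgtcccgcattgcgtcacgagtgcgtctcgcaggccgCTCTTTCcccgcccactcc
Rps15: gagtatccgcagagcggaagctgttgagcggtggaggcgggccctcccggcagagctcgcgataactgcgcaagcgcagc
Rps16: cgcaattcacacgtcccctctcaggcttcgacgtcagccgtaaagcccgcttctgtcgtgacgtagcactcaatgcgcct
Rpl23: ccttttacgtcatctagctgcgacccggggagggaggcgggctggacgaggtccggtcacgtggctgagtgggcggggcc
Rpl31: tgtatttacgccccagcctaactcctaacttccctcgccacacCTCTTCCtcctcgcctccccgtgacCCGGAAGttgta
Rpl9: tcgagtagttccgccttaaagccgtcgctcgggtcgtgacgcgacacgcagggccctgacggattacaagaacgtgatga
Rps12: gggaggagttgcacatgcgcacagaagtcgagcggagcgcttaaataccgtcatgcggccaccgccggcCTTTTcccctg
Rps15a: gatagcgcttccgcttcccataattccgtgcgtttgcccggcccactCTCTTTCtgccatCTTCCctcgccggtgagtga
Rps6: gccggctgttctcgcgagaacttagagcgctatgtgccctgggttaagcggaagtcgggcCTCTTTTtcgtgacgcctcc

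Of the 79 genes, 60 had an entry in the promoter table. A pyrimidine run lay near the start in 34 of them (56.7%), against 23.3% of all 27025 genes of the table. It was present in 5 of 7 genes higher in the Tam libraries, 8 of 12 lower and 20 of 40 not called. CCGGAAG lay in the 300-base promoters of 23 ribosomal protein genes (38.3%), against 9.93% of all genes. It was present in 1 of 7 higher genes, 2 of 12 lower genes and 20 of 40 not called. These matches describe letters in a window and were not tested between the classes.

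Ribosomal protein mRNAs moved both ways and by small amounts. Of 78 tested genes, 12 were higher and 15 lower in the Tam libraries, and 51 did not pass the test (edgeR quasi-likelihood test over all 14479 tested genes, Benjamini-Hochberg adjusted p under 0.05). That was 34.6% called, against a background of 44.5% of all tested genes (21.5% higher and 22.9% lower). The median log2 fold change was -0.07, against -0.01 over all tested genes, with 42 genes below 0 and 36 above. The called genes differed 1.36- to 1.74-fold when higher and 1.32- to 1.74-fold when lower. Of the 78, 0 reached 2-fold, against 1829 of all 14479 tested genes that were called at 2-fold or more. The median size of the log2 fold change was 0.34, against 0.46 over all tested genes. In simulated counts the procedure recovered 25.4% of 1.5-fold and 91.0% of 2-fold changes. There 14113 of 14313 genes were unchanged, while 44.5% of tested genes were called here, so these shares need not hold for this comparison. A gene not called may still differ by this much.

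In the large subunit, 10 of 47 genes were higher, 9 lower and 28 not called, with a median log2 fold change of -0.07 (quartiles -0.32 and 0.33, range -0.66 to 0.80). In the small subunit, 2 of 30 tested genes were higher, 6 lower and 22 not called, with a median of -0.16 (quartiles -0.40 and 0.26, range -0.80 to 0.78). Both Tam libraries lay above both EtOH libraries for 14 large-subunit and 7 small-subunit genes, and below for 15 and 10. Over all tested genes each of these orders held for 37% of genes, above as well as below. The difference between the subunits was not tested. When libraries were scaled by total counts, the median over all tested genes was 0.12, the median log2 fold change of large subunit members was 0.056 and that of small subunit members stayed below 0. That scaling called 11 higher and 3 lower in the large subunit and 6 higher and 3 lower in the small subunit, so the share of higher among the calls rests on the scaling.

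**Figure D1:**
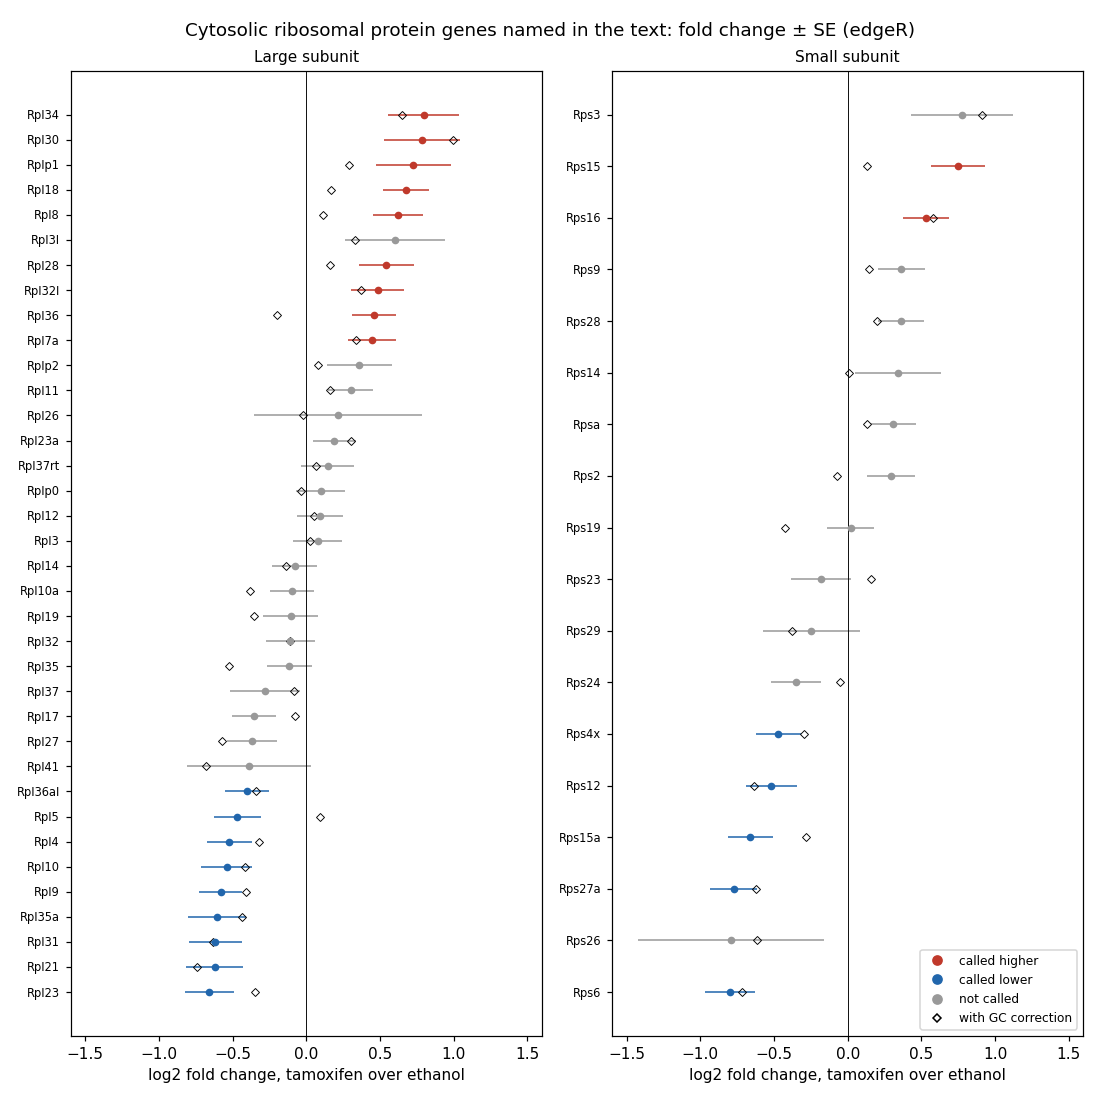
Log2 fold change (tamoxifen over ethanol, x axis) of the tested ribosomal protein genes named in the text (rows), with bars of 1 SE from edgeR, the large subunit on the left and the small subunit on the right. Red genes were called higher, blue lower and grey not called, open diamonds give the value with GC correction, and values run from -0.80 (Rps6) to 0.80 (Rpl34).

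Many calls ended when a library was left out, and other genes were newly called, mostly without an EtOH library. Without Tam replicate 2 the calls of 23 of the 27 genes ended, and those of Rpl9, Rps12, Rps15a and Rps27a did not. Over all genes that fit called 1800 higher and 2088 lower, against 3119 and 3322 with all libraries. The log2 fold change of some genes whose call ended was as large or larger without it, as for Rpl28 (0.60, against 0.54 with all libraries) and Rps4x (-0.51, against -0.47). Without Tam replicate 1, 12 calls ended, without EtOH replicate 1, 6, and without EtOH replicate 2, 2. When a Tam library is left out, the EtOH pair alone sets the spread. Among the newly called genes, Rplp2 stood at 0.79 and Rps23 at -0.46 without EtOH replicate 1. Without EtOH replicate 2, Rpl11 stood at 0.42 and Rpl41 at -0.87. Of the 27 genes, Rps27a was the only one called whichever library was left out (log2 fold changes -0.93 to -0.58). Scaling by total counts ended 9 calls, all of lower genes, among them those of Rpl4, Rpl5, Rpl10, Rpl21, Rpl35a, Rpl36al, Rps4x and Rps12.

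Reads of all these genes together made up 3.04% and 3.18% of reads in genes in the Tam libraries and 3.35% and 2.75% in the EtOH libraries, so the groups overlapped. The large subunit took 1.88% and 1.92% in the Tam libraries and 1.96% and 1.70% in the EtOH libraries. The small subunit took 1.15% and 1.25% in the Tam libraries and 1.39% and 1.05% in the EtOH libraries. In both subunits the EtOH libraries lay on either side of the Tam libraries. Without Rpl4 the large subunit took 1.589% and 1.656% in the Tam libraries, against 1.585% and 1.341% in the EtOH libraries, so both Tam libraries were above, Tam replicate 1 barely. Rps26 took 0.160% and 0.141% of reads in the Tam libraries and 0.359% and 0.117% in the EtOH libraries. Without Rps26 the small subunit took 0.992% and 1.11% in the Tam libraries and 1.03% and 0.932% in the EtOH libraries. The ratio of large-subunit to small-subunit reads was 1.63 and 1.53 in the Tam libraries and 1.41 and 1.62 in the EtOH libraries.

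**Figure D2:**
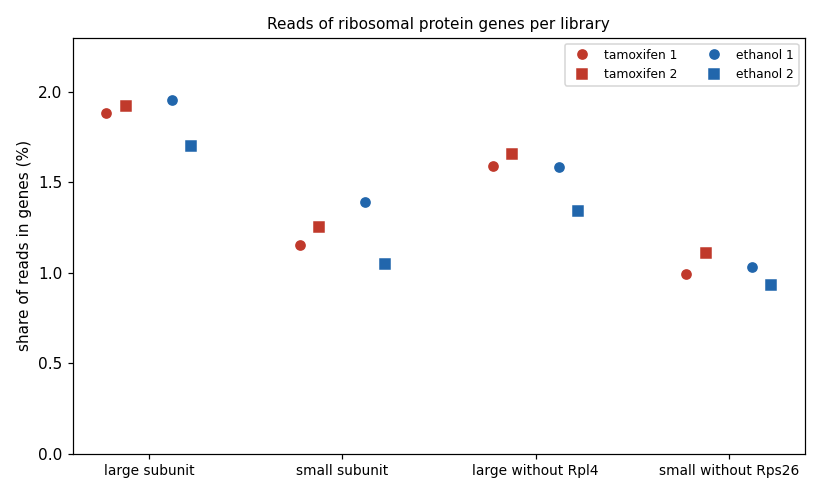
Share of reads in genes (%, y axis) taken by ribosomal protein genes of each subunit, with all genes and without Rpl4 or Rps26, in the 2 tamoxifen (red) and 2 ethanol (blue) libraries. The ethanol libraries lie on either side of both tamoxifen libraries for each subunit with all its genes, at 1.96% and 1.70% for the large subunit against 1.88% and 1.92%.

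Levels spanned a wide range. Of the tested genes, 74 had at least 25.1 CPM (from here on scaled by TMM factors) in every library, and Rpl3l, Rpl26, Rpl30 and Rpl34 averaged under 5 CPM. Per kilobase of annotated transcript, Rplp1 stood at 2598 CPM in the Tam libraries, followed by Rps26 (2116), Rpl41 (2100), Rpl4 (1734) and Rps24 (1297). In the EtOH libraries Rps26 led with 3660 CPM per kilobase, followed by Rpl41 (2747), Rpl4 (2489), Rps24 (1651) and Rplp1 (1569). EtOH replicate 2 over replicate 1 was -1.63 log2 for Rps26, -1.25 for Rpl41 and -0.72 for Rplp1, so the order among the highest genes lay within the replicate spread.

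Within the large subunit, proteins near the peptidyl transferase centre, where peptide bonds form, moved in opposite directions. Rpl4, which also lines the tunnel that the new chain leaves through, had 2786 and 2549 CPM in the Tam libraries, against 3911 and 3745 CPM in the EtOH libraries. This gave a log2 fold change of -0.52 ± 0.15 (SE; edgeR adjusted p = 0.0162), and it was not called without Tam replicate 1 (-0.59) or replicate 2 (-0.46). Rpl10, a late-joining protein close to the centre, had 179 and 147 CPM in the Tam libraries, against 269 and 205 CPM in the EtOH libraries, a log2 fold change of -0.54 (edgeR adjusted p = 0.0239; not called without EtOH replicate 1, at -0.33, or Tam replicate 2, at -0.40). Rpl8 had 744 and 964 CPM in the Tam libraries, against 554 and 555 CPM in the EtOH libraries. Its log2 fold change was 0.62 ± 0.17 (edgeR adjusted p = 0.0102), and 0.43 and not called without Tam replicate 2. Rpl3, the fourth protein at the centre, had overlapping groups, with 315 and 410 CPM in the Tam libraries and 354 and 332 CPM in the EtOH libraries. Rpl10a, a protein of the stalk through which spent tRNA leaves, had a log2 fold change of -0.10 and was not called. With GC correction, in which each library's trend with transcript GC content is removed by loess, none of these 5 was called, and Rpl4 stood at -0.32 and Rpl8 at 0.12.

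The P stalk is a flexible arm of the large subunit that recruits elongation factors. Of its genes, Rplp1 was called, with 1076 and 1516 CPM in the Tam libraries, against 975 and 591 CPM in the EtOH libraries. Both Tam libraries were above both EtOH libraries, though Tam replicate 1 and EtOH replicate 1 lay close. The log2 fold change was 0.73 ± 0.25 (SE; edgeR adjusted p = 0.0413), 0.46 and not called without Tam replicate 2, and 0.29 and not called with GC correction (adjusted p = 0.385). It was 1.14 without EtOH replicate 1 and 0.42 without EtOH replicate 2, called in both. Rplp2, its partner in the stalk, had 289 and 270 CPM in the Tam libraries and 275 and 162 CPM in the EtOH libraries, so the groups overlapped. On the log2 scale the difference was 0.36 and not called, and 0.79 and called without EtOH replicate 1. Rplp0, the stalk base, and Rpl12 beside it had log2 fold changes of 0.10 and 0.09 and were not called.

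Rpl5 and Rpl11 bind the 5S ribosomal RNA, and outside the ribosome this particle holds back MDM2, the ubiquitin ligase of p53. Rpl5 had 560 and 546 CPM in the Tam libraries, against 696 and 834 CPM in the EtOH libraries. This gave a log2 fold change of -0.47 ± 0.16 (SE; edgeR adjusted p = 0.0304), -0.32 and not called without EtOH replicate 2, and 0.09 and not called with GC correction. It was not called without either Tam library (-0.49 without replicate 1, -0.45 without replicate 2). Rpl11 had 205 and 231 CPM in the Tam libraries, against 164 and 190 CPM in the EtOH libraries, with groups that did not overlap, and was not called (log2 fold change 0.30; edgeR adjusted p = 0.128). The 2 partners had log2 fold changes of opposite sign without GC correction and of the same sign with it (0.16 for Rpl11). Rpl23, which also binds MDM2, had 450 and 401 CPM in the Tam libraries, against 744 and 599 CPM in the EtOH libraries. It had the most negative log2 fold change of the large subunit, -0.66 ± 0.17 (SE; edgeR adjusted p = 0.00722). Without Tam replicate 2 this was -0.58 and with GC correction -0.34, not called in either.

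At the rim of the exit tunnel, where new chains emerge and the signal recognition particle docks, 1 of 6 genes was called (16.7%, against 44.5% of all tested genes). This was Rpl31, with 112 and 107 CPM in the Tam libraries, against 198 and 138 CPM in the EtOH libraries. The Tam replicates lay close together and the EtOH replicates apart. The log2 fold change was -0.62 ± 0.18 (SE; edgeR adjusted p = 0.0142), and it was not called without EtOH replicate 1 (-0.33) or Tam replicate 2 (-0.58). Rpl35, on the docking site, had 273 and 318 CPM in the Tam libraries, against 319 and 321 CPM in the EtOH libraries, and was called with GC correction (log2 fold change -0.53, edgeR adjusted p = 0.0249) and not without it (-0.12). Rpl17, Rpl19 and Rpl23a had log2 fold changes of -0.36, -0.10 and 0.19 and were not called. Rpl26 was nearly undetected, with 7 and 14 reads in the Tam libraries and 3 and 21 in the EtOH libraries.

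Among the other large-subunit genes, the most positive were Rpl34 and Rpl30, both among the 4 genes under 5 CPM. Rpl34 had 55 and 78 reads in the Tam libraries, against 35 and 64 in the EtOH libraries, which had more reads in all. That was 3.89 and 4.37 CPM in the Tam libraries, against 2.28 and 2.46 CPM in the EtOH libraries, a log2 fold change of 0.80 ± 0.24 (SE; edgeR adjusted p = 0.0184). Rpl30 had 48 and 76 reads in the Tam libraries, against 32 and 61 in the EtOH libraries, a log2 fold change of 0.79 ± 0.26 (edgeR adjusted p = 0.0252). With GC correction Rpl34 was at 0.65 and not called (adjusted p = 0.0765), and Rpl30 at 0.999 and called. Neither was called by DESeq2 (adjusted p = 0.0916 for Rpl34 and 0.114 for Rpl30). Without Tam replicate 2 they stood at 0.71 and 0.61 and were not called. Genes of this family have many processed copies, and how reads shared with copies were counted is not known from the labels.

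Rpl18 had 262 and 310 CPM in the Tam libraries, against 169 and 189 CPM in the EtOH libraries. On the log2 scale the difference was 0.68 ± 0.16 (SE; edgeR adjusted p = 0.00468). It was 0.55 without Tam replicate 2 and 0.17 with GC correction, not called in either. Rpl21 had 255 and 179 CPM in the Tam libraries, against 378 and 291 CPM in the EtOH libraries. Its log2 fold change of -0.62 ± 0.20 (edgeR adjusted p = 0.0231) stayed called with GC correction (-0.74). It was -0.39 and not called without Tam replicate 2. Rpl35a had 27.9 and 27.3 CPM in the Tam libraries, against 51.3 and 33.1 CPM in the EtOH libraries, and its log2 fold change of -0.61 (edgeR adjusted p = 0.0267) was not called without EtOH replicate 1 (-0.26), Tam replicate 1 (-0.62) or Tam replicate 2 (-0.59), or with GC correction (-0.44). Rpl9 had 65.5 and 72.0 CPM in the Tam libraries, against 110 and 96.2 CPM in the EtOH libraries. This gave a log2 fold change of -0.58 ± 0.15 (SE; edgeR adjusted p = 0.00746), called without Tam replicate 2 and not called without Tam replicate 1 (-0.52) or with GC correction (-0.41). Further calls, named after their values were seen, were Rpl28 (log2 fold change 0.54), Rpl32l (0.49), Rpl36 (0.46) and Rpl7a (0.45), which were higher, and Rpl36al (-0.40), which was lower. Without Tam replicate 2 these calls ended, at 0.60 for Rpl28, 0.29 for Rpl32l, 0.35 for Rpl36, 0.29 for Rpl7a and -0.32 for Rpl36al. Without Tam replicate 1, Rpl28 (0.49), Rpl36 (0.56), Rpl7a (0.58) and Rpl36al (-0.50) were not called. Without EtOH replicate 1, Rpl32l (0.31) and Rpl7a (0.35) were not called, and without EtOH replicate 2, Rpl28 (0.30). With GC correction none of these 5 was called, and Rpl36 turned to -0.20, with Rpl28 at 0.16, Rpl32l at 0.37, Rpl7a at 0.34 and Rpl36al at -0.34.

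**Figure D3:**
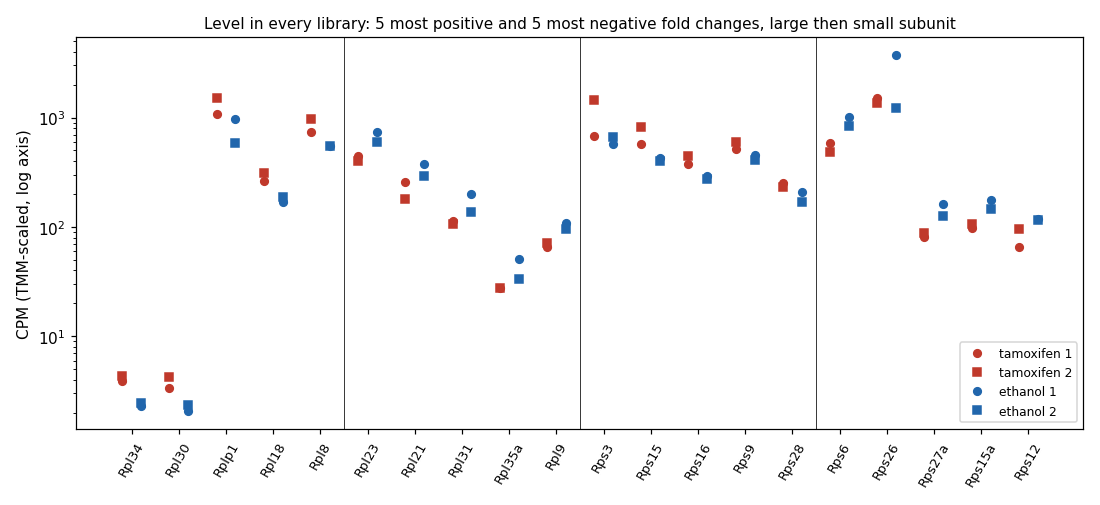
Level (TMM-scaled CPM, log axis) of the genes with the most positive and most negative log2 fold changes of each subunit, 5 of each, in the 2 tamoxifen (red) and 2 ethanol (blue) libraries, each library as 1 point. The tamoxifen points lie on 1 side of the ethanol points for every gene but Rps26, whose ethanol libraries stood at 3770 and 1216 CPM around tamoxifen values of 1522 and 1361.

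Rps6 had the most negative log2 fold change of the family. It is the substrate of the S6 kinases, which act downstream of mTORC1. It had 589 and 483 CPM in the Tam libraries, against 1018 and 845 CPM in the EtOH libraries, so both Tam libraries lay well below. The mean was 536 ± 74.8 CPM in the Tam libraries and 931 ± 122 CPM in the EtOH libraries (SD, n = 2 each), with a log2 fold change of -0.80 ± 0.17 (SE; edgeR adjusted p = 0.00293). The call held with GC correction (-0.72, adjusted p = 0.00788), and ended without Tam replicate 2, where the value was -0.66.

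Rps27a is made as a fusion with ubiquitin, which is cut off to feed the ubiquitin pool. It had 80.6 and 88.5 CPM in the Tam libraries, against 162 and 127 CPM in the EtOH libraries. The log2 fold change was -0.77 ± 0.16 (SE; edgeR adjusted p = 0.00247), and -0.62 with GC correction by transcript (adjusted p = 0.0134). With GC content taken from the coding sequence instead, the log2 fold change of Rps27a was -0.31 and not called. Fau and Rack1, ribosomal proteins outside the symbol rule, had log2 fold changes of 0.34 and 0.20 and were not called.

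Rps15a had 98.1 and 105 CPM in the Tam libraries, against 176 and 146 CPM in the EtOH libraries. On the log2 scale the difference was -0.66 ± 0.15 (SE; edgeR adjusted p = 0.00455), -0.61 and not called without Tam replicate 1, and -0.29 and not called with GC correction. Rps12 had 66.2 and 95.7 CPM in the Tam libraries, against 117 and 115 CPM in the EtOH libraries, so the EtOH libraries were close and the Tam libraries apart. Its log2 fold change was -0.52 (edgeR adjusted p = 0.0296), called also with GC correction (-0.64) and not without Tam replicate 1 (-0.28). Rps4x, an X-linked gene, had a log2 fold change of -0.47 and was called lower (named after its values were seen). It was not called without Tam replicate 1 (-0.43) or Tam replicate 2 (-0.51), or with GC correction (-0.29).

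On the decoding side of the small subunit, Rps15 had 569 and 821 CPM in the Tam libraries, against 422 and 404 CPM in the EtOH libraries. The log2 fold change was 0.75 ± 0.18 (SE; edgeR adjusted p = 0.00632). It was 0.46 without Tam replicate 2 and 0.13 with GC correction, not called in either. Rps23, which sits at the decoding centre, was not called (log2 fold change -0.18). Rps16 had 377 and 444 CPM in the Tam libraries, against 294 and 274 CPM in the EtOH libraries. Its log2 fold change of 0.53 ± 0.16 (SE; edgeR adjusted p = 0.0157) was 0.58 and still called with GC correction. It was 0.41 and not called without Tam replicate 2. Rps9 and Rps28 both had log2 fold changes of 0.36 with groups that did not overlap, and neither was called (edgeR adjusted p = 0.0769 for Rps9 and 0.0789 for Rps28).

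At the mRNA entry site, neither of 2 genes was called by edgeR, DESeq2 or limma voom with all libraries and the group as the only term. Rps3 had 675 and 1453 CPM in the Tam libraries, against 573 and 670 CPM in the EtOH libraries. Both Tam libraries were above, but Tam replicate 1 was level with EtOH replicate 2, and the log2 fold change of 0.78 ± 0.35 did not pass (SE; edgeR adjusted p = 0.118). It was 1.22 and called without Tam replicate 1, and 0.12 without Tam replicate 2, and with no filter on low counts the log2 fold change of Rps3 was 0.76 and called (edgeR adjusted p = 0.000236). With all libraries, the log2 fold change of Rps2 was 0.29, and it was 0.42 and called with total counts and -0.08 with GC correction. At the mRNA exit site, 0 of 5 genes were called in these same fits (among them Rpsa, Rps14, Rps26 and Rps28; 1 at an unadjusted edgeR p under 0.05), against 44.5% of all tested genes. Without EtOH replicate 1, Rps14 (0.78) and Rps28 (0.51) were called, and without EtOH replicate 2, Rpsa (0.41). Rps26 had 1522 and 1361 CPM in the Tam libraries and 3770 and 1216 CPM in the EtOH libraries, a log2 fold change of -0.79 ± 0.63 (SE; edgeR adjusted p = 0.391). Without EtOH replicate 2 it was -1.38 and called, and without EtOH replicate 1 it was 0.25.

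Fold changes followed the GC content of the transcript, in this family as in all genes. Among the 13 genes above 56% GC, 7 were called, all higher, with a median log2 fold change of 0.46, against 54.2% higher and 2.62% lower and a median of 0.59 over 3170 tested genes in that class. Among the 25 genes from 48 to 52% GC, 1 was higher and 9 lower, with a median of -0.24, against 10.4% higher and 16.6% lower and a median of -0.05 over 3108 genes. Among the 11 genes below 48% GC, 1 was higher and 3 lower, with a median of -0.34, against 3.15% higher and 50.5% lower and a median of -0.48 over 4926 genes. The 29 genes from 52 to 56% GC had 3 higher and 3 lower (10.3% each) and a median of 0.0996, against 28.7% higher and 6.8% lower and a median of 0.25 over 3189 genes. The median GC content was 56.4% for genes called higher, 48.9% for genes called lower and 52.9% for genes not called. Across the 78 genes the log2 fold change and GC content had Pearson's r of 0.558 and Spearman's rho of 0.575, and over 14393 tested genes 0.591 and 0.648. These describe genes in the same 4 libraries, which are not independent replicates.

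**Figure D4:**
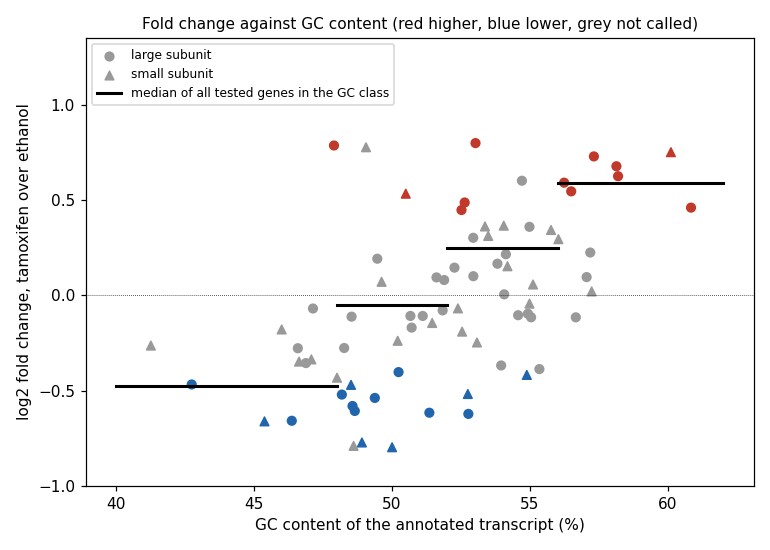
Log2 fold change (tamoxifen over ethanol, y axis) of tested large-subunit (circles) and small-subunit (triangles) genes against the GC content of the annotated transcript (%, x axis), with the median of all tested genes in each GC class as black lines. Above 56% GC the 7 called genes were all higher (red), and the black lines climb from -0.48 to 0.59.

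With each library's GC trend removed by loess, 2 of the 78 genes were higher (Rpl30 and Rps16) and 8 lower (among them Rpl21, Rpl27, Rpl31, Rpl35, Rps6, Rps12 and Rps27a). That was 12.8% called, against 19.2% of all tested genes (9.52% higher and 9.68% lower). Of the first calls, 2 higher and 6 lower were kept, 10 higher and 9 lower ended, and Rpl27 and Rpl35 were new. The medians stayed at -0.07 for the large and -0.16 for the small subunit, and the correlation with GC content was near 0 (r = -0.0929). With GC content of the coding sequence in place of the transcript, a choice made after seeing the data, 4 of the 27 calls were kept, those of Rpl30, Rpl34, Rps6 and Rps12. Over all 14479 tested genes that fit called 1675 higher and 1635 lower, against 1378 and 1402 with the correction by transcript. With the correction by transcript, Rpl21, Rpl30, Rpl31, Rps6, Rps16 and Rps27a were not called without Tam replicate 2, whereas the log2 fold change of Rps12 was -0.93 and called. Without Tam replicate 1 Rps12 was not called, nor were Rpl31, Rps16 and Rps27a, and Rpl31 was also not called without EtOH replicate 1. With either Tam replicate left out, this correction also called far fewer of all tested genes, so these ended calls do not set the family apart. Whether the GC trend is a property of the cells or of the libraries was not tested.

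Replicates of the same group differed as much as the groups did for many of these genes. In 36 of the 78 genes the EtOH replicates were further apart than the group means, and 2 of the 36 were called. A wide replicate spread itself works against a call. EtOH replicate 2 was lower than EtOH replicate 1 for 53 genes, by at least 0.5 log2 for 15, and at least 0.5 log2 higher for 2. In the Tam pair, replicate 2 was at least 0.5 log2 lower for 1 gene and higher for 5. None of these counts was made over all tested genes, so they do not set this family apart. The median size of the replicate difference was 0.17 log2 in the Tam pair and 0.26 log2 in the EtOH pair, against 0.17 and 0.22 log2 over all tested genes. The median log2 ratio of EtOH replicate 2 over replicate 1 was -0.14 for these genes, against -0.0035 over all tested genes.

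The EtOH pair differed along the length of the coding sequence. The 7 genes with under 300 coding bases had a median log2 ratio of EtOH replicate 2 over replicate 1 of -0.66, against -0.10 for 37 genes of 300 to under 500 bases, -0.17 for 18 genes of 500 to under 700 and -0.03 for 14 genes of 700 or more. The Tam pair had medians of -0.01, 0.06, 0.10 and 0.21 in these classes, in order of length. Across 76 genes the EtOH ratio had r of 0.318 and rho of 0.276 with log2 coding length, against 0.0870 and 0.0887 over all tested genes. Rpl41, a peptide of few residues with the shortest coding sequence here, had 1109 and 1102 CPM in the Tam libraries and 2037 and 856 CPM in the EtOH libraries. Rps29 had 245 and 237 CPM in the Tam libraries and 389 and 184 CPM in the EtOH libraries. For both, the EtOH libraries lay on either side of the Tam libraries. Rps29 was called in opposite directions by the library left out, at 0.40 without EtOH replicate 1 and -0.68 without EtOH replicate 2. Without EtOH replicate 2 the log2 fold changes of Rpl41, Rpl37 and Rps28, also of this class, were -0.87, -0.62 and 0.23. Without EtOH replicate 1 they were 0.37, 0.19 and 0.51. Of the 7 shortest genes 0 were called with all libraries by edgeR, DESeq2 or limma voom, against 44.5% of all tested genes by edgeR. Of the 7, 1 (Rps28) had an unadjusted edgeR p under 0.05.

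**Figure D5:**
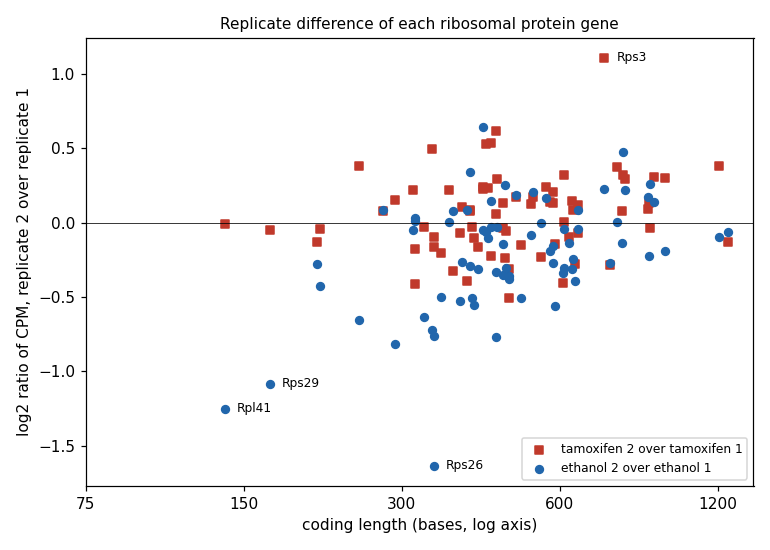
Log2 ratio of replicate 2 over replicate 1 (y axis) against coding length in bases (log axis) for ribosomal protein genes with over 100 reads in EtOH replicate 1, with the tamoxifen pair as red squares and the ethanol pair as blue circles. The lowest ethanol points are Rps26 (-1.63), Rpl41 (-1.25) and Rps29 (-1.08), and the highest tamoxifen point is Rps3 (1.11).

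Copies of these genes bear on some values. Rpl14-ps1 held 1.65 times the reads of Rpl14, the copies of Rps15a 1.03 times those of Rps15a, Rpl31-ps12 0.948 times those of Rpl31 and Rps19-ps3 0.723 times those of Rps19. How reads of near-identical copies were shared out is not given in the sources used here, so these genes are uncertain. With the reads of named copies added to the parent, a choice made after seeing the data, Rpl31 stood at -0.57 (edgeR adjusted p = 0.0152) and Rps15a at -0.48 (adjusted p = 0.0204), and both stayed called. Rpl32l was called higher (0.49) while Rpl32, its parent by symbol, was at -0.11, and the sum of both was at 0.06 and not called. Rpl37 was at -0.28, Rpl37rt at 0.14 and their sum at 0.02, none of them called. Rps27rt had 0 reads in all 4 libraries, where a count of 0 allows up to 3 reads per library, and was not tested. Rpl3l, a paralog of Rpl3 known from muscle, had 2.34 and 1.68 CPM in the Tam libraries, against 1.63 and 1.08 CPM in the EtOH libraries, and was not called. Rps19bp1, the match by name, had a log2 fold change of 0.31 and was not called.

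In humans, loss of 1 copy of certain ribosomal protein genes causes Diamond-Blackfan anaemia. Of 18 such genes 1 was higher (Rpl18) and 4 lower (Rpl5, Rpl31, Rpl35a and Rps15a), with a median log2 fold change of -0.19. That was 27.8% called, below the 44.5% of all tested genes. Rps19, the gene most often affected in patients, had 27.7 and 29.3 CPM in the Tam libraries and 30.6 and 25.8 CPM in the EtOH libraries, with overlapping groups. With GC correction 3 of the 18 were called (16.7%, against 19.2% of all tested genes), all lower (Rpl27, Rpl31 and Rpl35).

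Other mRNAs with a TOP tract, most of them for translation factors, also moved both ways. Of 19 such genes 5 were higher (among them Eef2, Eif3f, Hnrnpa1 and Vim) and 5 lower (Eif3e, Gas5, Nap1l1, Npm1 and Tpt1), with a median log2 fold change of 0.14 (52.6% called, against 44.5% of all tested genes, and 26.3% in each direction, against 21.5% higher and 22.9% lower). Eif3e, a subunit of the initiation factor that binds the small subunit, had 134 and 148 CPM in the Tam libraries, against 281 and 310 CPM in the EtOH libraries. On the log2 scale the difference was -1.06 ± 0.15 (SE; edgeR adjusted p = 0.000320), and -0.34 and not called with GC correction. Gas5, a noncoding host gene of small nucleolar RNAs, was at -0.88 (edgeR adjusted p = 0.000992; -0.57 and called with GC correction). Vim, the intermediate filament gene, was at 0.79 (edgeR adjusted p = 0.00197) and is also expressed by fibroblasts, whose markers were higher. With GC correction 3 were higher and 1 lower (21.1% called, against 19.2% of all tested genes). When either Tam replicate was left out, fewer of these TOP mRNAs were called in each direction, as was so over all tested genes.

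Genes that govern TOP mRNAs and ribosome production were called in 8 of 17 cases, 5 higher and 3 lower, with a median log2 fold change of 0.24 (47.1% called, against 44.5% of all tested genes). Akt1s1, an inhibitory subunit of mTORC1, had 53.1 and 62.8 CPM in the Tam libraries, against 25.9 and 24.2 CPM in the EtOH libraries, a log2 fold change of 1.21 (edgeR adjusted p = 0.000179; 0.46 and called with GC correction). Rheb, the GTPase that activates mTORC1, had 57.4 and 53.2 CPM in the Tam libraries, against 103 and 112 CPM in the EtOH libraries, a log2 fold change of -0.96 (edgeR adjusted p = 0.000433; -0.70 with GC correction). Eif4e, the cap-binding protein, was at -0.999 (edgeR adjusted p = 0.000456; -0.43 and not called with GC correction), and Rptor, the scaffold of mTORC1, at 0.71 (adjusted p = 0.00193; 0.31 and not called with GC correction). Mtor and Larp1 were at 0.24 and 0.34 and not called. Rps6kb1, a kinase of Rps6, was at -0.28 and not called, and at 0.46 and called higher with GC correction. Myc, a transcription factor known to drive ribosomal protein genes and named for that role, had 140 and 138 CPM in the Tam libraries, against 49.9 and 31.5 CPM in the EtOH libraries (log2 fold change 1.78, edgeR adjusted p = 0.000142).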

How the data were processed

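The authors deposited whole-number read counts for each gene symbol. The closing summary lines, in HTSeq form, were kept out of library sizes and tests. The submitters' processing notes name CASAVA 1.8.2, Bowtie 1.1.1, DESeq2, HTSeq and the build mm9. Neither the role of each tool nor the annotation or strand setting is given there, so reads of overlapping, antisense or near-identical genes may have been split or dropped.

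From these counts, Tam was compared with EtOH by edgeR 4.0.16 in R 4.3.3 (glmQLFit with robust, TMM factors, filterByExpr, group only). P-values were adjusted over all 14479 tested genes with a threshold of 0.05, and SE was the size of the log2 fold change divided by the root of F. For the GC correction, the deviation of each library's log2 CPM was fitted by loess on the GC content of the transcript (degree 1, span 0.5) and entered into the fit. Transcript GC and lengths were read from GENCODE M21 transcripts of GRCm38 (23535 symbols matched directly, 506 by synonym, 387 not), and promoters from RefSeq GRCm38.p6. Depth was at least 13458463 reads in genes per library.

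The genes and lists were chosen with earlier results of these data known. The naming rule took the 5 most positive and 5 most negative log2 fold changes and the 3 highest levels per length of each subunit, the genes of the role lists, and up to 4 genes of the TOP and regulator lists. The role list for the peptidyl transferase centre also held Rpl10a, a protein of another site. Alternatives were other scalings (RLE, upper quartile, total counts), other filters and thresholds, DESeq2 1.42.0, limma voom (limma 3.58.1), the replicate number as a block, leaving out each library and the GC correction. Where a library was left out, the lone library was assumed to vary like the other group. The procedure was tested on simulated data of this comparison with 14313 genes, where 25.4% of the 1.5-fold, 91.0% of the 2-fold and 100% of the 4-fold differences were found, with 9 of 14113 unchanged genes called. Far fewer genes changed there than were called in the real comparison, so these shares need not hold for it. Results for some genes are not reported here; they are included in the counts.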

Additional observations from a re-analysis of the deposited data

How the results depend on the processing

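Counts of called ribosomal protein genes moved with the GC correction, the scaling, the replicate block and the libraries included. With all libraries, the large subunit had 10 higher and 9 lower, the small subunit 2 higher and 6 lower, and the other TOP mRNAs 5 higher and 5 lower. With GC correction these were 1 and 4, 1 and 4, and 3 and 1, and with coding-sequence GC content (chosen after seeing the data) 2 and 0, 0 and 2, and 2 and 1. Over all genes the correction called 1378 higher and 1402 lower by transcript and 1675 higher and 1635 lower by coding sequence. Total counts, which moved the median of all genes to 0.12 (-0.01 with TMM) and called 4082 genes higher and 2520 lower over all genes, gave 3 lower in the large subunit and 6 higher and 3 lower in the small subunit, with a large-subunit median of 0.056. Upper-quartile factors gave 4 higher in the small subunit. At an adjusted p under 0.01 the large subunit had 2 higher and 2 lower, the small subunit 1 and 3, and the TOP mRNAs 2 higher, and at 0.1 the small subunit had 4 higher. With copies added (also chosen after seeing the data) the median log2 fold change of large subunit members was 0.00497. DESeq2, limma voom, RLE factors and both other filters left each of these counts within 1.5 times.

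The numbers are shared by both groups, but with 2 pairs and a correlation of 0.234 between the replicate differences of Tam and EtOH they were not shown to pair the samples. With the replicate block, 1 call among the genes ended (Rplp1) and 13 were gained (among them Rps2 and Rps3 of the mRNA entry site and Rpsa and Rps28 of the exit site, edgeR adjusted p = 0.0359, 0.0361, 0.0225 and 0.00805), and the small subunit had 7 higher. Over all 14479 tested genes the block called 3919 higher and 4168 lower, against 3119 and 3322 without it. With GC correction and the block, the large subunit had 6 higher and 15 lower and the TOP mRNAs 3 lower. That fit called 2576 higher and 2438 lower over all genes, against 1378 and 1402 with GC correction alone.

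Leaving out each library in turn gave 0 to 10 higher and 1 to 11 lower in the large subunit, 0 to 6 higher and 2 to 10 lower in the small subunit, and 1 to 5 higher and 3 to 6 lower among TOP mRNAs. With GC correction as well, these were 0 to 3 and 0 to 13, 0 to 2 and 1 to 10, and 1 to 4 and 0 to 2. Over all tested genes, too, fewer were called without a Tam library than without an EtOH library, with and without GC correction. These ranges therefore do not set the family apart. The subunit medians ran from -0.043 to 0.13 (large) and from -0.24 to 0.16 (small), and with GC correction from -0.09 to -0.07 and from -0.27 to -0.08. The log2 fold change of Rpl5 changed sign with GC correction (0.091), and with the replicate block added to it (0.092). With GC correction it was also above 0 without EtOH replicate 2 (0.18), Tam replicate 1 (0.041) or Tam replicate 2 (0.14). Without GC correction it stayed below 0 whichever library was left out (-0.59 to -0.32). With GC correction and without Tam replicate 2, the log2 fold change of Rpl8 was -0.071 and that of Rps15 was -0.14, and without EtOH replicate 2 that of Rps23 was 0.50 and called. Of 1165 values of 53 named genes under 22 alternatives, 888 kept their side of the threshold and direction, 167 lost a call, 48 gained one, 54 changed sign while not called and 8 reversed. The causes were not tested.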
